A study of Caenorhabditis elegans with 2 samples.

Results

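Of the 30000 candidate regions in the pooled list for NHR-237, 259 had their summit inside, or within 500 bp of either end of, a gene annotated as a small nucleolar RNA (snoRNA) or a microRNA (miRNA). Within that list they were chosen by position alone, without use of the signal. The summit of each region was set against the Ensembl genes of the worm genome (build ce11, also named WBcel235). This rule was set with earlier results of these data known. Of these 259 regions, called the small RNA gene regions here, 168 lay at snoRNA genes and 95 at miRNA genes, and 4 of them lay at genes of both classes. They fell next to 253 of the 607 annotated genes of these classes, 153 of 346 snoRNA genes and 100 of 261 miRNA genes.

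The regions come from chromatin immunoprecipitation followed by sequencing (ChIP-seq), which recovers DNA held by a protein in fixed cells. Whole L3 larvae of Caenorhabditis elegans, both sexes pooled, of strain OP228 with the genotype unc-119(ed3) III; wgIs228 were used, and the inserted transgene wgIs228 carries NHR-237 fused to eGFP. There was 1 group with 2 biological replicates of this 1 strain, fragments of 150 to 350 bp, and no second condition, stage or treatment, so no test between groups was possible and all values below are descriptive. The labels give the antibody target as nhr-237, do not say which promoter drives the transgene, and name a possible control library, which was not analysed here. Chromatin of all tissues was mixed, so a region occupied in a few cells and one weakly occupied in many cells cannot be told apart.

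The authors deposited a ranked list of 30000 candidate regions for each replicate and for the pool of both, and 48 peaks that passed their irreproducible discovery rate (IDR) threshold, a cut set by how well ranks agree between lists. The signal quoted below is the authors' own peak value, without a stated scale and without an SD, and serves here for ordering regions inside 1 list. Because the lists all stop at 30000 regions, most of their entries are candidates below the IDR cut: the lowest signal was 42.7 in the IDR set and the median was 17.5 in the pooled list. The pooled list contains the reads of both replicates, so finding a pooled region in a replicate list is not independent evidence. Read totals for the lists were not given.

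As background, snoRNAs guide chemical modification and processing of ribosomal RNA and other structural RNAs in the nucleolus, and in worms many lie in introns of protein-coding host genes, from whose transcripts they are cut. miRNAs are cut from hairpin transcripts and pair through their seed, bases 2 to 8 of the mature RNA, with target messengers to lower their output. Nuclear hormone receptors such as NHR-237 are zinc finger transcription factors, a family that is greatly expanded in nematodes. RNA polymerase III transcribes tRNA genes from internal promoter elements, of which the B box has the letters GTTCGANTC at its core.

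The sequences shown first are from 3 of the 5 snoRNA genes that carried B box letters at their start. They were picked because they had the letters within 100 bp of a summit and included the small RNA gene region of second-highest signal. ZK546.18 and F12F6.11, without the letters near a summit, are not shown. Each runs 5′ to 3′ on the strand of the gene, from the RefSeq genome sequence of ce11, and capitals mark GTTCGANTC (N is any base). The windows lay at chrV:19643176-19643241 (minus strand), chrIV:7574066-7574131 (plus strand) and chrIV:2408620-2408685 (minus strand).
Y43F8C.22: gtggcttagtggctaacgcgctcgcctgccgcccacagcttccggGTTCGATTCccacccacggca
F32E10.10: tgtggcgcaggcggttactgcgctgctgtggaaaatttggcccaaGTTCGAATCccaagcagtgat
Y38F2AR.14: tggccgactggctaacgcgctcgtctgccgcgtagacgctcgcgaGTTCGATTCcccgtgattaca

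The window of 201 bases at the summit of highest signal is shown next, on the strand of the snoRNA gene C06A1.9 and of its host cdc-48.1, at chrII:10563460-10563660 (minus strand). Capitals mark the letters AGCGCG, which read CGCGCT on this strand. AGTTCA, also searched and reading TGAACT on this strand, is present and left in lower case.
C06A1.9: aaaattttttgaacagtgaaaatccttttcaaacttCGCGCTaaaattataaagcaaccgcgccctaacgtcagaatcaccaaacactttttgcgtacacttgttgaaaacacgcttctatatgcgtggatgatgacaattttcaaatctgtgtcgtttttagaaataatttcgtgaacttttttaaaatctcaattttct

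Windows of the same length at the summits upstream of let-7 (chrX:14745322-14745522, minus strand) and of the mir-35 cluster (chrII:11537358-11537558, plus strand) are shown because these miRNA genes are among the best studied with a region. Capitals mark GAGAGA, here as overlapping copies, at let-7, and AGCGCG, reading CGCGCT on this strand, at mir-35. Other searched letters are left in lower case: the mir-35 window also holds GAGAGA, and the let-7 window also holds AGGTCA.
let-7: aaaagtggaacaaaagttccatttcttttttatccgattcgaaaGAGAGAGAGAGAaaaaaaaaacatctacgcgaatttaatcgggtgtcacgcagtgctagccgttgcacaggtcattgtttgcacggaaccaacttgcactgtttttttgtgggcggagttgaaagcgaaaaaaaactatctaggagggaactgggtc
mir-35: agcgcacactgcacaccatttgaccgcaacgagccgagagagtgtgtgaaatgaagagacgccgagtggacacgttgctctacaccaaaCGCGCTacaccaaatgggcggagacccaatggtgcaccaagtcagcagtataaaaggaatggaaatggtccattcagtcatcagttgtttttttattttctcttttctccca

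Of the 100 miRNA genes with a region, 99 have a mature sequence in RefSeq (WBcel235), and 26 of them share a seed with another of the 100. Mature RNAs from 6 of the 10 shared seeds are shown with the seed in capitals: the 4 seeds with 3 or more such genes, and those of mir-52 and let-7, which belong to the listed families. Over all miRNA genes, 38.3% had a region. In the seed group CACCGGG, 7 of the 8 genes with that seed had a region, in UUGUACU 3 of 3, in GAGAUCA 4 of 6, in GGCAAGA 3 of 6, in ACCCGUA 2 of 6 and in GAGGUAG, the let-7 seed, 2 of 5.
mir-35: uCACCGGGuggaaacuagcagu
mir-36: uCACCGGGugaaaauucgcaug
mir-41: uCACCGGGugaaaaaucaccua
mir-238: uUUGUACUccgaugccauucaga
mir-239.1: uUUGUACUacacauagguacugg
mir-239.2: uUUGUACUacacaaaaguacug
mir-80: uGAGAUCAuuaguugaaagccga
mir-58.2: aGAGAUCAaccauugagauccaa
mir-72: aGGCAAGAuguuggcauagcuga
mir-52: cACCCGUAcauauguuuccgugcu
mir-53: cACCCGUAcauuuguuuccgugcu
let-7: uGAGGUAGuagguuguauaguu
mir-48: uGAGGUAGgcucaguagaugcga

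These counts are over genes, and neighbouring genes can share a region. The 7 genes of the mir-35 group had 2 regions between them, and the 3 genes of the UUGUACU group had 5.

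As a group the small RNA gene regions were of modest signal. Their median signal was 18.4 with quartiles of 15.8 and 22.2 and a range of 13.9 to 104, against a median of 17.5, quartiles of 15.4 and 20.7 and a range of 13.8 to 204 over all 30000 candidates. The median of the small RNA gene regions stood at percentile 57.8 of the pooled list. Regions at snoRNA genes had a median of 18.4 and those at miRNA genes a median of 17.9, with a highest value of 33.5 at miRNA genes. The 221 regions at tRNA genes, picked by the same distance, also had a median of 17.9.

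The lean above the middle of the list was not shared by both replicates. In the list of replicate 2 alone, 235 regions met the same rule and their median stood at percentile 60.8. In the list of replicate 1 alone, 263 regions met it and their median stood at percentile 46.4. Of the small RNA gene regions, 37 (14.3%) were among the 3000 pooled candidates of highest signal.

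**Figure D1:**
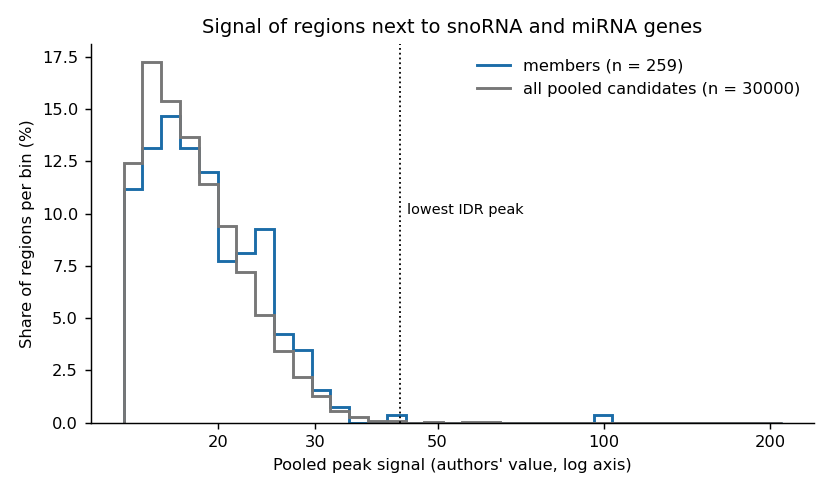
Share of regions (%) in each bin of pooled peak signal (log axis), for the 259 regions next to snoRNA and miRNA genes (blue) and all 30000 pooled candidates (grey); the dotted line marks the lowest IDR peak at 42.7. The 2 outlines cover the same range for most regions, and 1 of the 259 lies right of the line, at 104; the bin that straddles the line holds the region at 41.5, just under it.

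A single small RNA gene region, the one at C06A1.9, was in the IDR set. That is 0.386% of 259 (exact 95% interval 0.00977 to 2.13%), against 0.160% of all candidates and 1.36% of regions at tRNA genes. In both replicate lists, 58 regions (22.4%, 17.5 to 28.0%) had a summit within 100 bp, against 20.5% of all candidates, so the share was close to that of the list as a whole. Neither replicate list held a match for 38 regions (14.7%), against 16.0% of all candidates. The other regions were matched in replicate 1 only (86) or replicate 2 only (77). The intervals cover counting error over summits only.

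Among the 500 regions of highest signal in a replicate, replicate 1 matched 7 small RNA gene regions (2.70%), against 1.54% of all candidates, and replicate 2 matched 7 (2.70%), against 1.51%. Both top lists together matched 2 small RNA gene regions (0.772%), against 0.167% of all candidates and 0.905% of regions at tRNA genes. The 2 were the regions at C06A1.9 and Y43F8C.22. Among the 58 regions present in both replicates, signal in replicate 1 and in replicate 2 ranked with a Spearman coefficient of 0.077, against 0.079 over the 6141 candidates present in both. Regions share each list's depth and the pooled selection, and both coefficients are near 0.

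**Figure D2:**
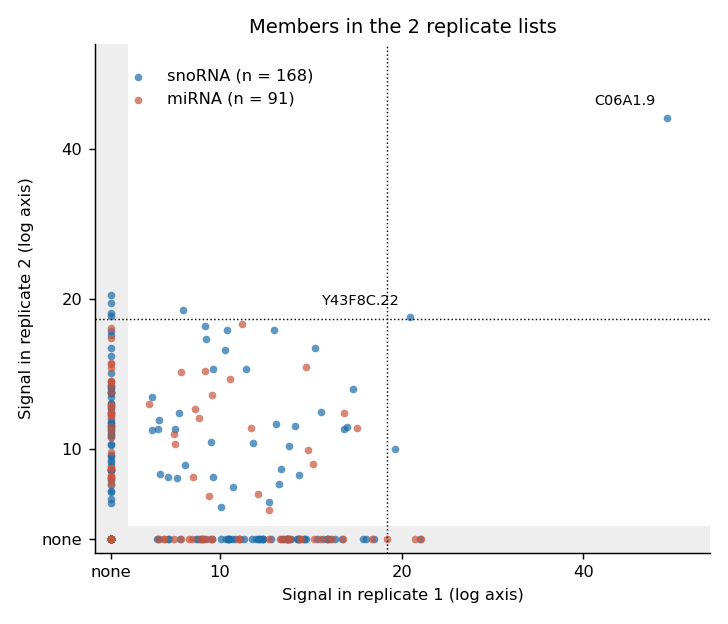
Signal of each of the 259 regions in the list of replicate 1 (horizontal) and replicate 2 (vertical), log axes, with regions at snoRNA genes in blue (including the 4 at genes of both classes) and at miRNA genes only in red; grey strips hold regions with no summit within 100 bp in that list, and dotted lines mark the signal at rank 500. C06A1.9 lies apart at 55.0 and 46.2, Y43F8C.22 just past both lines at 20.7 and 18.4, and the other regions in both lists form a cloud without order.

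C06A1.9 is a snoRNA gene in an intron of cdc-48.1, which encodes an AAA ATPase that unfolds ubiquitinated proteins. Its region, chrII:10563385-10563734, had a signal of 104 and rank 13 in the pooled list, 55.0 and rank 13 in replicate 1, and 46.2 and rank 13 in replicate 2. The summit lay 496 bp upstream of the snoRNA gene but 153 bp from the start of cdc-48.1, so the region lay nearer to the host's start than to the snoRNA gene. Inside the snoRNA gene itself lay another candidate with a signal of 15.8 and rank 21024, which matched 8.60 in replicate 1 and nothing in replicate 2. With the distance limit at 250 bp, the IDR region dropped out and none of the 152 remaining regions was in the IDR set.

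The distance limit decided other cases near its edge. Just inside it, the region at the snoRNA gene C16D9.11 lay at 495 bp with a signal of 14.0 and that at K10G6.11 at 489 bp with 14.5. Just outside it, regions lay 503 bp from mir-60 (16.2), 503 bp from C24G7.6 (16.0) and 510 bp from F38E11.14 (25.0). Among candidates between 500 and 1000 bp, the region of highest signal lay 756 bp upstream of the snoRNA gene T27A8.8. That region had a signal of 120, with 63.0 in replicate 1 and 56.7 in replicate 2, was in the IDR set and is not counted among the 259.

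Y43F8C.22 is a snoRNA gene in an intron of Y43F8C.7. Its region, chrV:19643040-19643389, had a pooled signal of 41.5 at rank 53, just under the lowest IDR signal of 42.7. Replicate 1 gave 20.7 at rank 249 and replicate 2 gave 18.4 at rank 463. The summit lay 28 bp upstream of the snoRNA gene and 815 bp from the nearest protein-coding start, so of the 2 regions in both top 500 lists this one lay closer to its small RNA gene. Its sequence, printed above, holds the B box letters ending directly before the annotated gene and AGCGCG on the other strand 8 bp from the summit.

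The B box letters were searched on both strands within 100 bp of every summit after the sequences of the regions had been read. Their count and the signals beside it are thus a description. They were present at 6 small RNA gene regions (2.32%), against 0.610% of all candidates and 16.3% of the 221 regions at tRNA genes. All 6 lay at snoRNA genes, none at miRNA genes, and none of the 6 was within 500 bp of an annotated tRNA gene. In all, 2 small RNA gene regions (0.772%) were near a tRNA gene, against 0.737% of all candidates. The median signal was 25.8 for the 6 regions, which include regions whose sequences led to the search, and 18.1 for the small RNA gene regions without the letters. Over all candidates the median was 17.6 for the 183 with the letters and 17.5 for those without. Both replicate lists matched 4 of the 6 and 33 of the 183, against 20.5% of all candidates.

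At 3 of the 6 regions the letters sat on the gene's own strand at its start, and all 3 were matched in both replicates. F32E10.10, which lies in no protein-coding gene, had a region of signal 28.1 with 16.2 in replicate 1 and 11.1 in replicate 2. Another region at F32E10.10, of signal 18.4, had 13.3 in replicate 2 and no match in replicate 1. Y38F2AR.14, in an intron of Y38F2AR.12, had a region of signal 26.9 with 11.1 in replicate 1 and 14.5 in replicate 2. Around AGCGCG, the 30 bases at Y43F8C.22 and Y38F2AR.14 were identical at 24 positions, with a shared run of 15. The other regions of the 6 had the letters away from a gene start, at ZK858.10 (24.6), T07D4.7 (21.9) and F09G2.14 (15.8).

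Counted over genes, with no use of the signal, 5 of the snoRNA genes had the letters on their own strand from 60 bases before to 30 after the start. Of these, 4 had a candidate region and 3 had one matched in both replicates, against 44.2% and 11.6% of all 346 snoRNA genes. The 3 are the genes whose sequences led to the search, so the count adds no evidence for them. The fourth was ZK546.18, with a signal of 14.6 and a summit 319 bp upstream, and the gene with none was F12F6.11. Of 4 miRNA genes with the letters in that window, 1 had a region (38.3% of all miRNA genes did), mir-1829.3, with a signal of 17.9.

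The letters AGCGCG, known from earlier results on these peaks, were searched within 100 bp of the summit on either strand. They were at 17 small RNA gene regions (6.56%), against 2.06% of all candidates and 4.07% of the 221 regions at tRNA genes. They lay at snoRNA genes in 14 of the 17. Base composition moved with them: the median GC content of the 201 bases was 38.3% in the small RNA gene regions and 36.3% in all candidates. Among regions with GC above that 36.3%, 10.7% of 149 small RNA gene regions held the letters, against 3.23% of all candidates with such GC. At or below it, 1 of 110 small RNA gene regions held them (0.909%), against 0.960% of all candidates, and that region was C06A1.9.

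The share was 10.6% in the 47 small RNA gene regions near a protein-coding start and 5.66% in the 212 away from one, against 2.95% and 1.82% of all candidates in those places. Of the 17 regions with AGCGCG, 9 (52.9%) were matched in both replicates, against 24.0% of all 617 candidates with the letters. Their median signal was 20.0, and 17.9 in the 617. In 1 of the 17, C51F7.4, the letters lay inside the snoRNA gene, which is in frm-7 and had a region of signal 26.6 with 14.4 in replicate 1 and 15.9 in replicate 2.

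Below are the letters with 12 bases on each side, on the strand that reads AGCGCG, from 5 of these regions. They lay at chrII:11484854-11484859, chrII:14018506-14018511, chrX:6867894-6867899, chrIII:2172220-2172225 and chrIII:3068088-3068093, and are shown so that the flanks can be compared.
B0334.12: agacatataaaaAGCGCGtatagtgtagta
F01D5.12: cacgtaaaacatAGCGCGccgcggaacccg
C53B7.8: ggccttgcggttAGCGCGttcgattagcgt
mir-229: ttttactgtgtgAGCGCGttttttcccgcc
H06I04.9: aattttaatgcaAGCGCGccccaccgcact

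Other letters searched on both strands gave the following shares. AGGTCA, the half-site that many nuclear receptors bind, was at 17 small RNA gene regions (6.56%), against 5.01% of all candidates. AGTTCA, a related half-site, was at 29 (11.2%), against 14.3%. GAGAGA was at 45 (17.4%), against 11.5%. By position it was at 31.2% of regions with the summit upstream of a miRNA gene, 8.51% of those downstream and 0 of 8 inside. For snoRNA genes it was at 17.1% upstream, 14.1% downstream and 4 of 20 regions inside. Median GC also differed by position, at 40.8% upstream and 35.3% downstream for miRNA genes, and 40.3% and 37.6% for snoRNA genes. CCCTGC was at 9 (3.47%), against 2.32%. Among the 221 regions at tRNA genes, AGGTCA was at 8.60%, AGTTCA at 10.9%, GAGAGA at 15.8% and CCCTGC at 4.52%. GAGAGA also moved with GC, at 23.5% of the small RNA gene regions and 15.2% of all candidates above the GC median, and at 9.09% and 8.08% at or below it. A match is a run of letters and not a binding site.

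Among snoRNA genes, 44.2% (exact 95% interval 38.9 to 49.6%) had a candidate within 500 bp, and among miRNA genes 38.3% (32.4 to 44.5%). The same count was 37.7% for 612 tRNA genes, 36.1% for 7764 ncRNA genes and 27.1% for 129 small nuclear RNA genes. Summits fell at 0.447 per kb in the windows of snoRNA genes and 0.378 per kb in those of miRNA genes. The density was 0.386 per kb around tRNA genes, 0.327 per kb within 500 bp of protein-coding starts and 0.299 per kb over the whole genome. The windows thus held 0.863% of the summits in 0.621% of the genome.

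The shares inside and outside host genes were close. Of 216 snoRNA genes inside a protein-coding gene, 43.5% had a region, and of 130 outside, 45.4% did. For miRNA genes the shares were 37.7% of 106 inside and 38.7% of 155 outside. Signal differed a little more: the median was 17.5 for the 136 regions at genes inside a host and 19.1 for the 123 others. The nearness of protein-coding starts was also ordinary, with 47 small RNA gene regions (18.1%) within 500 bp of one, against 20.5% of all candidates.

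**Figure D3:**
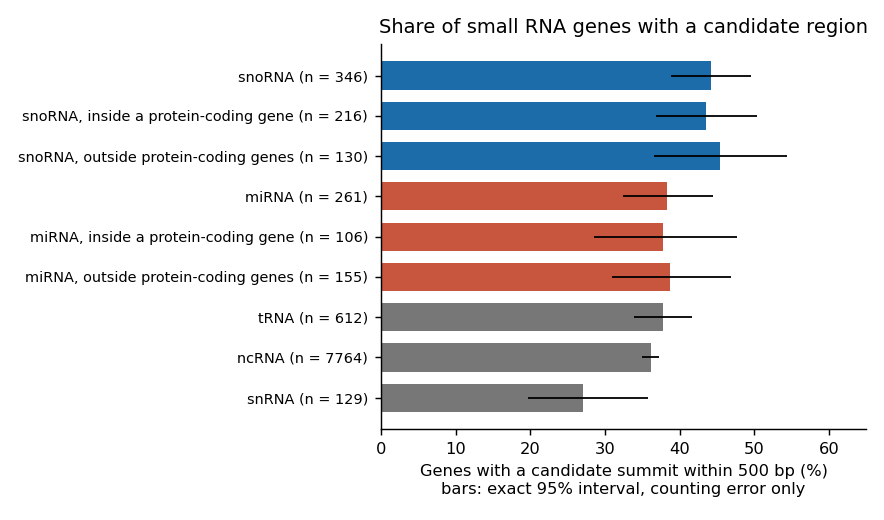
Share of genes (%) with a candidate summit inside or within 500 bp, for snoRNA genes (blue), miRNA genes (red) and tRNA, ncRNA and small nuclear RNA (snRNA) genes (grey), with exact 95% intervals as lines. snoRNA genes stand at 44.2% and miRNA genes at 38.3%, and the bars for genes inside and outside hosts overlap in their intervals.

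By chromosome, a region was found at 56.4% of snoRNA genes on V, 37 of 74 on I, 46.5% on II, 45.5% on X, 33.3% on III and 32.2% on IV. For miRNA genes the span was narrower, from 46.4% on V to 32.7% on II. Chromosomes V and IV stood at opposite ends in agreement between replicates. On IV, 15 of 44 small RNA gene regions (34.1%) were matched in both replicates, with a median signal of 20.1. On V, 5 of 50 were, with a median signal of 17.4. Over all candidates the shares were 20.0% on IV and 20.5% on V.

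Summits were spread over the windows on both sides of the genes. For snoRNA genes, 77 pairs of region and gene had the summit upstream, 20 inside and 82 downstream. For miRNA genes the counts were 54 upstream, 8 inside and 52 downstream. At miRNA genes 15 pairs lay 101 to 200 bp upstream and 5 lay 101 to 200 bp downstream, while 11 and 16 lay 201 to 300 bp upstream and downstream. Regions with the summit inside the gene had a median signal of 19.0 (28 regions, 9 matched in both replicates), those upstream 18.3 (123 regions, 30 in both) and those downstream 17.8 (124 regions, 23 in both).

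**Figure D4:**
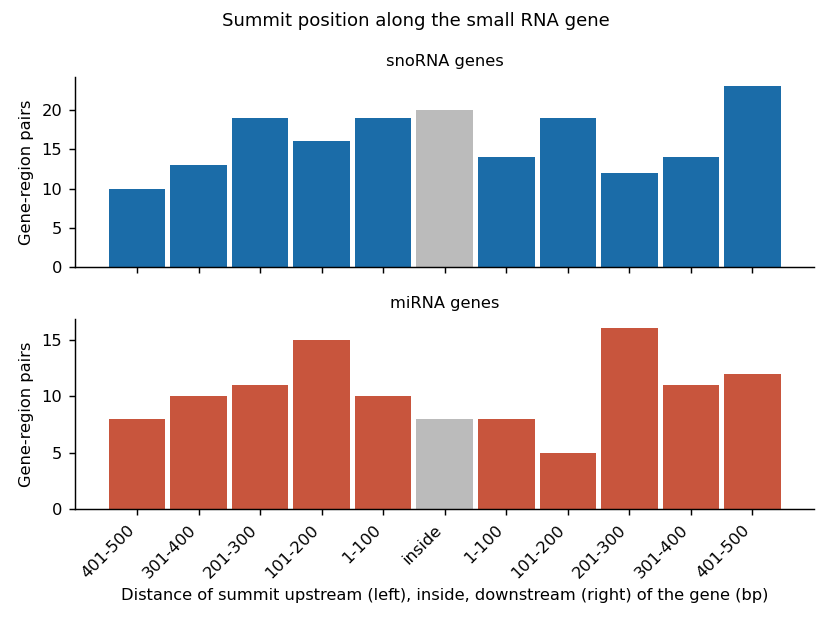
Number of gene-region pairs by distance of the summit from the gene (bins of 100 bp, read in the direction of the gene), for snoRNA genes (top, 179 pairs) and miRNA genes (bottom, 114 pairs), with summits inside the gene in grey. Counts run from 10 to 23 per bin at snoRNA genes and from 5 to 16 at miRNA genes, without a common peak.

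Ribosomal protein genes host 23 of the snoRNA genes. Of these 23, 9 had a region (all snoRNA genes, 44.2%), and none of the regions was in the IDR set. At rpl-7A, for the large ribosomal subunit, Y24D9A.9 had a region of signal 17.1 whose summit lay 36 bp from the start of rpl-7A, with 11.8 in replicate 1 and none in replicate 2. At rpl-7, F53G12.12 had a region with its summit inside the snoRNA gene, of signal 17.1, with 13.3 in replicate 1 and 11.1 in replicate 2. At rpl-27A, Y37E3.21 and Y37E3.22 shared a region of signal 22.3, seen in replicate 2 (10.2) and not in replicate 1. In rps-27A, which encodes a small subunit protein, H06I04.8 and H06I04.9 shared a region of signal 15.9 and H06I04.9 had another of 14.3, both seen in replicate 1 only. Also among the 9, B0412.6 and B0412.7 shared a region of signal 17.5 that was in neither replicate list. D1007.20 had a region of signal 17.4, shared with mir-353, with 10.7 in replicate 2 and none in replicate 1.

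K07C5.18 lies in nol-56, which encodes a core protein of box C/D snoRNA particles. It had 3 regions, of signals 17.7, 17.6 and 14.8, and none was matched in both replicates.

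The highest regions at snoRNA genes after Y43F8C.22 mostly differed in rank between the replicates. C07A9.14, inside an intron of ncx-7, a sodium-calcium exchanger gene on the opposite strand, had its summit inside the snoRNA gene with a signal of 33.4. It ranked 762 in replicate 2 (17.4) and 13610 in replicate 1 (10.3). R07G3.16 had regions on both sides, of signals 27.9 and 26.7, with 19.0 and 16.7 in replicate 2 and 8.67 and 9.48 in replicate 1. T05A6.20 had a region of signal 29.0 that was 21.4 in replicate 1 and absent from replicate 2. At C27H5.9 and C27H5.10, which flank 1 region in an intron of pdl-1, the signal was 28.0, with 19.5 at rank 387 in replicate 1 and rank 13759 in replicate 2. The region at T26A8.6 had a signal of 28.1, with 16.6 at rank 1234 in replicate 1 and 13.2 at rank 4495 in replicate 2.

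Among miRNA genes, mir-2214, in an intron of B0361.11, had the highest signal. Its region, chrIII:7278642-7278991, reached 33.5 at rank 227, with 16.1 in replicate 1 and 11.8 in replicate 2, and its summit lay 39 bp downstream of the hairpin. A region at the snoRNA gene ZK930.15, 437 bp from mir-44, had a signal of 30.7, with 12.3 in replicate 1 and 17.4 in replicate 2. mir-790 had 2 regions, of signals 30.7 and 25.6, with 21.0 and 18.9 in replicate 1 and no match in replicate 2. mir-272 had a region of signal 28.5, with 13.9 at rank 3771 in replicate 1 and 14.7 at rank 2510 in replicate 2. mir-8202, in an intron of unc-77, a sodium leak channel gene, had 25.9, with 21.5 in replicate 1 and none in replicate 2.

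mir-239.1 and mir-239.2, which share a seed and have been linked to stress response and lifespan, point away from each other on X. Between them lay 2 regions, both matched in both replicates. The region 112 bp upstream of mir-239.2 had a signal of 29.5, with 16.9 in replicate 1 and 11.0 in replicate 2. The region 432 bp upstream of mir-239.1, which also lay 102 bp upstream of the snoRNA gene C34E11.20, had 22.7, at rank 7486 in replicate 1 and 7.82 at rank 26818 in replicate 2. Another region downstream of mir-239.2, of signal 14.3, was in neither replicate list. Of the 6 stress and ageing miRNA genes listed, 4 had a region, against 38.3% of all miRNA genes, and 2 of their 6 regions were matched in both replicates, against 22.4% of all small RNA gene regions. mir-238 had 2, of signals 21.1 and 15.2, and mir-34, an ageing and stress miRNA, had 1 of signal 15.0, none of them matched in both replicates.

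The mir-35 family acts in embryos and is required for embryonic viability. Its cluster mir-35 to mir-41 lies on chromosome II inside the opposite-strand gene Y62F5A.9. The region 150 bp upstream of mir-35 had a signal of 24.1, with 7.62 in replicate 1, at rank 29930 of 30000, and 12.3 in replicate 2. At the other end of the cluster, 45 bp downstream of mir-41, a region had a signal of 17.3, with 9.37 in replicate 1 and none in replicate 2. mir-42, the other member of the family, had no region.

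The heterochronic miRNAs time the larval stages, and 4 of the 9 listed (44.4%) had a region, near the 38.3% of all miRNA genes. let-7, which promotes the change from larval to adult fates, had one at chrX:14745247-14745596, 101 bp upstream of the annotated start of its gene. The mature let-7 RNA lies farther off, at chrX:14744234-14744255, against a summit at chrX:14745422, so 101 bp is not the distance to the mature RNA. The signal of the let-7 region was 25.7, with 14.9 in replicate 2 and no match in replicate 1. mir-794 had 24.3, seen in replicate 1 only (17.9). mir-237 had 16.7, seen in replicate 1 only (9.61). mir-48 had 14.2, seen in neither. lin-4, mir-84, mir-241, mir-793 and mir-795 had none. No heterochronic miRNA region was thus matched in both replicates, against 22.4% of all small RNA gene regions.

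**Figure D5:**
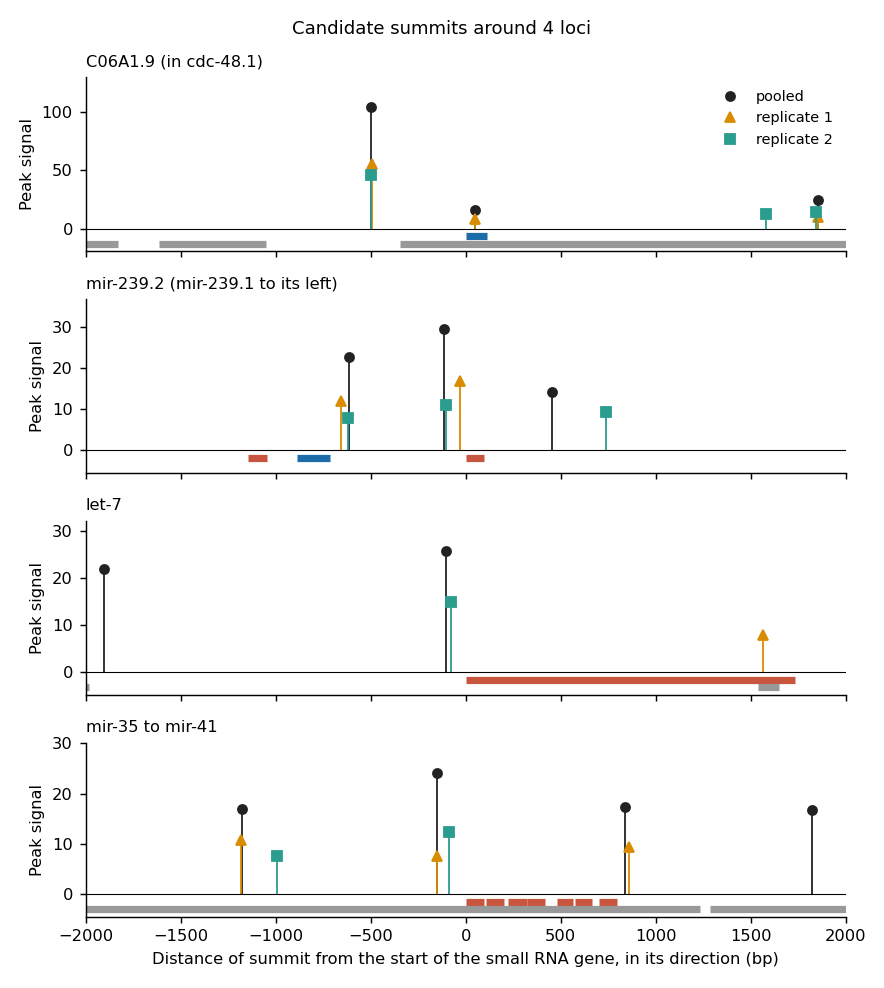
Candidate summits within 2000 bp of 4 small RNA genes, as distance from the gene's start in its own direction (bp, horizontal) and peak signal (vertical, scaled per panel), in the pooled list (black), replicate 1 (orange) and replicate 2 (green); bars below each axis are snoRNA genes (blue), miRNA genes (red) and protein-coding genes (grey). C06A1.9 has 1 tall summit 496 bp upstream in all 3 lists, mir-239.2 has 2 summits upstream in all 3, let-7 has 1 seen in replicate 2, and the mir-35 cluster has low summits at both ends.

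In the mir-51 family, essential miRNAs that act in many tissues, 2 of 6 genes (33.3%) had a region, near the 38.3% of all miRNA genes. All 3 regions there were matched in both replicates, against 24.2% of regions at miRNA genes. mir-52 had 1 of signal 28.5 lying 377 bp upstream, with 10.9 in replicate 1 and 17.8 in replicate 2, and 1 of signal 22.1 lying downstream. mir-53 had 1 of signal 24.3, with 9.46 in replicate 1 and 14.4 in replicate 2. In the mir-58 family, 5 of 8 genes had a region, against 38.3% of all miRNA genes, and 2 of their 5 regions were matched in both replicates, against 22.4% of all small RNA gene regions. The highest, at mir-80, had its summit inside the hairpin gene with a signal of 25.0, seen in replicate 2 only (14.9).

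Of the 6 muscle and neuron miRNA genes, 4 had regions, against 38.3% of all miRNA genes: mir-790, described above, lsy-6, mir-1 and mir-273. lsy-6, which sets the left-right difference of a pair of taste neurons, had a signal of 15.9 and was in neither replicate. mir-1, the muscle miRNA, had 16.7, with 12.1 in replicate 1 and 7.56 in replicate 2. mir-273 had 14.5 and 14.2, both in neither replicate. Outside this list, mir-796, which has the mir-1 seed, had 22.1, with 8.62 in replicate 1 and 14.3 in replicate 2. In the mir-2 family 1 of 4 genes (25.0%), mir-2 itself, had a region, of signal 20.0, also in neither.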

How the data were processed

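Per the submitters' file lists, the authors made ranked lists of peaks and background for each replicate and for the pool, and an IDR list. The sources used here do not give the aligner, the peak caller, control handling or the IDR cut. The peak signal (column 7 of the deposited ce11 lists) is the authors' value; nothing was renormalized. Region positions and summits came from the position columns of the same lists; their score, p and q columns and the ce10 lists were not used. Summits were paired with Ensembl release 115 genes of WBcel235, whose chromosome lengths cover all regions, at up to 500 bp. Summits within 100 bp counted as matched. Letters were searched in RefSeq sequence 100 bp to each side. Intervals are Clopper-Pearson, 95%. Python 3.11.15, pandas 2.3.3 and scipy 1.17.1 were used, and the pairing was tested on simulated summits. The regions, lists and letters were chosen with earlier results of these data known. Named genes were those at regions in the IDR set, in the top 500 of both replicates or of highest signal per class, listed miRNAs with a region, and hosts. Genes named for letters or distance, those in ribosomal protein genes, K07C5.18 and mir-796 were chosen after their values were seen.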

Additional observations from a re-analysis of the deposited data

How the results depend on the processing

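The counts moved with the distance limit, the class and the signal cut. At 250 bp there were 152 regions, at 28.3% of snoRNA and 21.5% of miRNA genes, with 0 in the IDR set. At 1000 bp there were 419, at 57.8% of snoRNA and 59.8% of miRNA genes. In the list cut at its median signal there were 148 regions at percentile 79.1, with 35.8% matched in both replicates, at 27.2% of snoRNA and 21.5% of miRNA genes; this selects on signal by construction. By class there were 168 regions at snoRNA and 95 at miRNA genes, the miRNA ones with 0 in the IDR set and 0 in both top 500 lists. Without regions near protein-coding starts, 0 were in the IDR set. With summits matched within 50 bp, 16.2% were in both replicates (13.6% of all candidates), within 200 bp 30.5% (29.2%), and by any overlap 36.7% (34.9%). Using 1 replicate's list in place of the pool gave 235 to 263 regions, percentiles of 46.4 to 60.8, and regions at 41.9 to 43.9% of snoRNA and 36.8 to 40.2% of miRNA genes. The other 36 values were counted as unchanged, among them the 212 regions left without those near protein-coding starts. For the percentile the spread used was 10.2, the SD between the 2 replicates, so it is no independent measure for the single-replicate values. No paired analysis was possible because there was 1 group. Read depth is unknown, 2 replicates give no test, most regions are candidates below the IDR cut, and signals of neighbouring regions are not independent.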

Other observations

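Some small RNA gene regions cannot be assigned to 1 gene. There were 28 regions next to 2 or more small RNA genes, with at most 4 genes at 1 region, 20 regions overlapped another of the 259, and 39 genes had 2 or more regions.

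The choice by position bears on where the regions lie relative to protein-coding genes. Of the 623.0 kb of windows around snoRNA and miRNA genes, 296.0 kb belonged to genes outside protein-coding genes. A window can reach past a host or into a neighbouring gene, so these lengths do not give the shares that position alone would produce. Summits outside protein-coding genes made up 122 small RNA gene regions (47.1%), against 34.9% of all candidates; in introns 77 (29.7%), against 30.2%; in exons 60 (23.2%), against 34.9%. The median signal was 19.1 outside, 17.5 in introns and 17.9 in exons of the small RNA gene regions, against 17.6, 17.3 and 17.7 over all candidates in those places.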
